A study of Rattus norvegicus with 70 samples.

Results

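Brown adipose tissue (BAT) of male rats that had inhaled PCB 52 was compared with BAT of male sham rats, using the libraries whose titles carry odd numbers and whose labels give the sex as male. These are 12 of the 70 libraries of the series, with 6 from PCB 52 rats (numbers 13, 15, 17, 19, 21 and 23) and 6 from sham rats (numbers 1, 3, 5, 7, 9 and 11). All were Sprague-Dawley rats, an outbred stock, with no altered allele named. PCB 52 rats breathed, through the nose only, filtered air that had passed over beads coated with this polychlorinated biphenyl at 12 L/min, for 4 h a day over 28 days. The labels do not say what the sham rats breathed. Every rat came to the laboratory aged 28 days, settled for 8 days and was trained in the apparatus. Males were assigned by random number at 39 days of age and females at 42 days, so sex and starting age differ together. About 100 mg of tissue was lysed per sample, and only RNA of an integrity number of at least 8 was used. Each title number was taken as a separate rat, which rests on the titles alone. If it does not hold, the p-values below measure only a spread between samples that may be technical.

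Brown fat burns fatty acids and glucose to make heat. Its mitochondria carry the uncoupling protein Ucp1, which lets protons leak back across the inner membrane, and noradrenaline from sympathetic nerves switches the tissue on through cyclic AMP, inducing genes such as Ppargc1a and Dio2. The tissue is densely vascularised, so its RNA also comes from endothelium, smooth muscle, resident macrophages and nerve. PCB 52 is a chlorinated biphenyl with ortho chlorines that is found in indoor air; congeners of this kind are known mainly for acting through the xenobiotic receptors CAR and PXR in liver rather than through the aryl hydrocarbon receptor.

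Total counts per library ran from 4604116 to 7813842 in PCB 52 BAT and from 4993333 to 7235645 in sham BAT, so that a count of 0 allows at most 0.384 to 0.652 CPM in PCB 52 libraries and 0.415 to 0.601 CPM in sham libraries, for counting error only. Of the 15319 genes in the table, 10687 had enough counts to be tested. CPM here and below is a gene's count as a rate over the TMM-adjusted library size, and fold changes are log2 of PCB 52 over sham with a standard error (SE). Over 30 pairs of libraries within groups the lowest chi-square per gene was 10.6, well above sampling noise, and no library was merged with another.

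The libraries carried the markers of brown fat. Ucp1 ran from 2634 through a median of 5817 to 8274 CPM in PCB 52 rats, against 4371, 6521 and 9283 CPM in sham rats. Adipoq, the adipocyte hormone adiponectin, ran from 2010 through 2457 to 3484 CPM in PCB 52 rats, against 1985, 2159 and 2378 CPM in sham rats. Elovl3, a fatty acid elongase that often marks active brown fat in mice, was listed at 0 in 10 of the 12 libraries, with at most 2 counts in any. The thymus gene Rag1 was at 0 in all 12 libraries, and the milk protein genes Csn1s1 and Wap at 0 in 10 and 11 of them.

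Skeletal muscle genes were abundant and uneven. Their 36 measured members summed to 995 CPM in PCB 52 rat 23 and 1575 CPM in sham rat 7, the 2 libraries that stood apart. In the other 5 PCB 52 libraries the sum ran from 8764 to 24280 CPM, and in the other 5 sham libraries from 29215 to 73627 CPM, so without those 2 libraries the groups did not overlap. All 36 members were lower in PCB 52 rats, with a median log2 fold change of -1.39. Of these, 3 had an unadjusted edgeR p under 0.05, among them Mb (myoglobin), against 4.64% of all genes called lower. Without rats 7 and 23 the count was 32, a description only, since these libraries were picked by the same genes. Mb ran from 78.1 through 328 to 461 CPM in PCB 52 rats and from 386 through 663 to 1071 CPM in sham rats. Every sham library was above the PCB 52 median for this gene, and the groups overlapped between 386 and 461 CPM. The labels do not describe how BAT was cut away from neighbouring muscle. In bulk tissue fewer cells of a type and less RNA per cell cannot be told apart, here or for any cell type below.

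No gene passed the test for a difference between PCB 52 and sham BAT. edgeR's quasi-likelihood test called 0 of the 10687 genes at a Benjamini-Hochberg adjusted p under 0.05 (0%), and the smallest adjusted p was 0.397. At an unadjusted p under 0.05 it found 1054 genes (9.86%), against 534 expected if none differed, with 558 higher (5.22%) and 496 lower (4.64%) in PCB 52 rats. These shares are the background for every count of unadjusted calls in a list. limma voom also called 0, with a smallest adjusted p of 0.42. DESeq2 called 8 of the 9795 genes for which it gave an adjusted p (0.0817%), 3 of them higher (Tep1, Srsf5 and Parp9) and 5 lower (Klf2, Igf2, Dusp1, Ctdnep1 and Ngfr) in PCB 52 rats. In 44 genes (0.412%) every PCB 52 library lay above every sham library, and in 20 genes (0.187%) every PCB 52 library lay below; all 8 DESeq2 calls are among these. Of all tested genes 54.9% had a fold change above 0 and 45.1% below 0, with a median of 0.023 and a median SE of 0.146. The share of unadjusted calls that were higher was 52.9%, but 78.9% with library totals alone and 42.6% with DESeq2, so the balance of directions over the whole table depended on scaling.

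**Figure D1:**
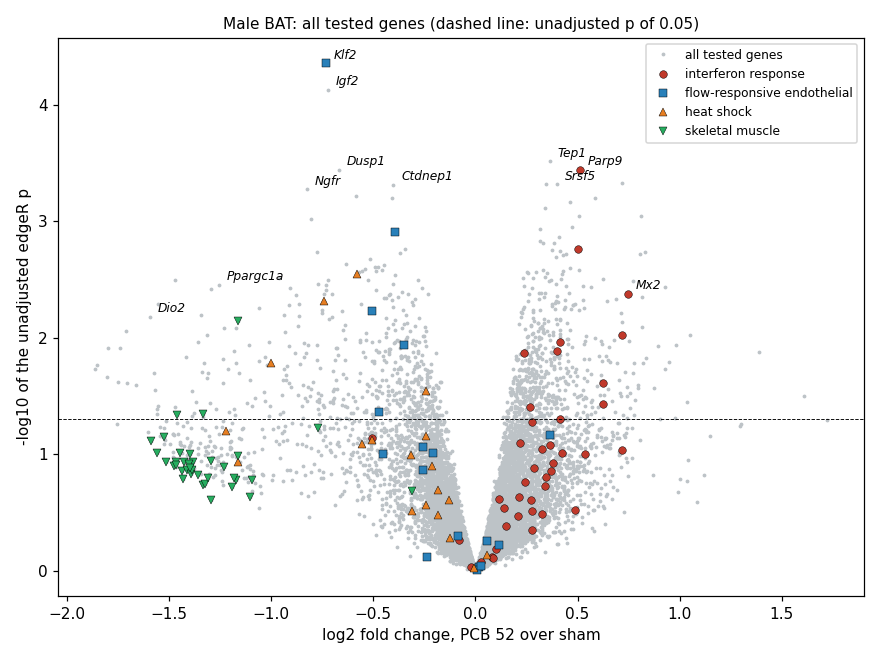
Each tested gene of male BAT by its log2 fold change, PCB 52 over sham (x axis), and the negative log10 of its unadjusted edgeR p (y axis), with the members of 4 gene lists coloured. Klf2 and Igf2 stand highest, both on the lower side, and the skeletal muscle members gather on the far left with modest p-values.

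The lower genes with the smallest p included regulators of blood vessels. Klf2, a transcription factor that laminar blood flow induces in endothelium, ran from 52.5 through 65.1 to 83.1 CPM in PCB 52 rats, against 97, 109 and 129 CPM in sham rats. All 6 PCB 52 libraries were below all 6 sham libraries. The log2 fold change was -0.73 (SE 0.125, n = 6 each), with an adjusted p of 0.397 by edgeR and 0.000261 by DESeq2. Leaving out any 1 library kept Klf2 lower, and leaving out rats 7 and 23 together gave -0.70 with an edgeR adjusted p of 0.133.

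Dusp1, a phosphatase that switches off MAP kinases and is induced within minutes of a stimulus, ran from 90.9 through 104 to 151 CPM in PCB 52 rats, against 152, 182 and 216 CPM in sham rats. The groups did not overlap, though PCB 52 rat 19 and sham rat 9 almost touched. The difference on the log2 scale was -0.67 (SE 0.143), with an adjusted p of 0.434 by edgeR and 0.0319 by DESeq2. Id1, an inhibitor of basic helix-loop-helix factors and a target of BMP signals, overlapped by a hair, since PCB 52 rat 23 had 61.8 CPM and sham rat 11 had 61.7 CPM; its log2 fold change was -0.40 (SE 0.0977). Pdgfb, the growth factor by which endothelium recruits pericytes, ran from 34.4 to 47.3 CPM in PCB 52 rats and from 43.4 to 57.2 CPM in sham rats (log2 fold change -0.37, SE 0.0962; edgeR adjusted p 0.434 for both genes).

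The list of flow-responsive endothelial genes to which Klf2 belongs was the only one of the 34 lists whose summed level did not overlap between the groups. Its 18 measured members summed to 608 through 696 to 745 CPM in PCB 52 rats, against 793, 819 and 869 CPM in sham rats. No PCB 52 library reached the lowest sham library. The list and its members were chosen with earlier results of these data known, and Klf2, the lower gene of smallest p, is part of the sum. The lack of overlap is therefore a description only. Of the 17 tested members 11 were lower, with a median log2 fold change of -0.24. An unadjusted edgeR p under 0.05 was found for 5, all lower, against 4.64% of all genes called lower. Klf2, Id1, Smad7 and Eng had the smallest p. Smad7, an inhibitor of TGF-beta signals, was 18.9 to 36.9 CPM in PCB 52 rats and 29.8 to 37.5 CPM in sham rats, with rat 15 the PCB 52 library inside the sham range (log2 fold change -0.51, SE 0.156). Eng, the TGF-beta co-receptor endoglin of endothelial cells, was 107 to 166 CPM in PCB 52 rats and 135 to 194 CPM in sham rats (log2 fold change -0.35, SE 0.12).

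Endothelial identity genes were lower by less. Of 27 tested members 22 were lower, with a median of -0.16. An unadjusted edgeR p under 0.05 was found for 4, all lower, against 4.64% of all genes called lower. Among the 4 were Rasip1 (needed to open vessel lumens), Vwf (von Willebrand factor) and Sox18 (a vascular transcription factor). With library totals alone 19 were lower, with a median of -0.09 and 1 unadjusted call, and without sham rat 3 the median was -0.10. Vwf ran from 47.4 to 80.0 CPM in PCB 52 rats and from 70.3 to 108 CPM in sham rats, with overlap (log2 fold change -0.35, SE 0.141). The defining markers did not part the groups: Pecam1 ran from 66.4 through 73.6 to 80.3 CPM in PCB 52 rats, against 62.5, 73.0 and 83.3 CPM in sham rats. The summed endothelial level ran from 3739 to 4696 CPM in PCB 52 rats and from 3795 to 4731 CPM in sham rats. Genes of smooth muscle and pericytes, which surround the vessels, had 13 of 17 tested members lower and a median of -0.12. The 4 unadjusted calls were all lower, against the same 4.64% over all genes. Tagln, an actin-binding protein of contractile smooth muscle, ran from 26.8 to 42.4 CPM in PCB 52 rats and from 40.6 to 59.4 CPM in sham rats (log2 fold change -0.52, SE 0.137). Myl9, a smooth muscle myosin light chain, was lower by a similar amount (log2 fold change -0.42, SE 0.124). The skeletal muscle sums given above were lower in the same libraries. With the muscle level as covariate 12 of the 17 smooth muscle and pericyte genes were lower (median -0.114, 3 unadjusted calls, all lower). The part of skeletal muscle in these values was not tested further.

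Immediate early genes, which neurons, hormones and mechanical stimuli induce within minutes, were mostly lower in PCB 52 BAT. Of 34 tested members 26 were lower, with a median log2 fold change of -0.19 against 0.023 over all genes. Of the 8 members with an unadjusted edgeR p under 0.05, 7 were lower, against 4.64% of all genes called lower. Klf2 and Dusp1, given above, had the smallest p among them, so this count is not separate from those genes. The summed level ran from 1421 through 1675 to 1859 CPM in PCB 52 rats, against 1825, 2019 and 2372 CPM in sham rats. PCB 52 rats 19 and 21 reached into the bottom of the sham range, and rat 23 was the lowest. Sik1, a kinase induced by cyclic AMP, ran from 30.1 to 55.1 CPM in PCB 52 rats and from 36.2 to 143 CPM in sham rats, with sham rat 11 the highest (log2 fold change -0.87, SE 0.267). The member with the largest difference was Nr4a3, an orphan nuclear receptor induced by cyclic AMP, at 5.08 to 32.4 CPM in PCB 52 rats and 12.8 to 85.9 CPM in sham rats (log2 fold change -1.42, SE 0.498). Klf10, induced by TGF-beta, was the only one of the 8 that was higher, at 40.0 to 56.9 CPM in PCB 52 rats and 33.5 to 48.3 CPM in sham rats (log2 fold change 0.33, SE 0.105). The classical members Fos and Egr1 had log2 fold changes of -0.16 (SE 0.357) and 0.06 (SE 0.245).

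Dusp1 and Jund, an AP-1 transcription factor, are shown because they were the immediate early members of smallest p whose promoters hold the full cyclic AMP response element. The motif TGACGTCA, which reads the same on both strands, occurred in the 250 bases before the start of 5 of the 24 tested immediate early genes with a RefSeq promoter (20.8%), and of 260 of the 8764 tested genes with one (2.97%). None of those 5 genes was higher in PCB 52 rats, and their median log2 fold change was -0.36, against -0.12 for the 19 without the motif. All 260 genes that hold the motif, list members included, had a median of -0.03, and 107 of them lay above 0. Sequences are RefSeq, build GRCr8, 5′ to 3′ on the gene's strand, with the motif in capitals. Dusp1 lies at chr10:17184603-17184852 (plus strand) and Jund at chr16:18769772-18770021 (minus strand).
Dusp1: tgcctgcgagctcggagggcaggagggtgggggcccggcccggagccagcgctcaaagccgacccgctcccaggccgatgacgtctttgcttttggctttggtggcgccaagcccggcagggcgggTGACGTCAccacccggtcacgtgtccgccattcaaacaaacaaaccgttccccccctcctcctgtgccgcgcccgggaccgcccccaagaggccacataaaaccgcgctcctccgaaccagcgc
Jund: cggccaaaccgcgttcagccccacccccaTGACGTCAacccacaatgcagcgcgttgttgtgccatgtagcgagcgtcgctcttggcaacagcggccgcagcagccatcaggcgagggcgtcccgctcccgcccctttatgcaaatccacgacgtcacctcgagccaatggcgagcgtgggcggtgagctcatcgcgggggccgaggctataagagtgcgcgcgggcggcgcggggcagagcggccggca

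Jund ran from 89.1 through 133 to 160 CPM in PCB 52 rats, against 140, 160 and 205 CPM in sham rats, with a log2 fold change of -0.38 (SE 0.148). The groups overlapped between 140 and 160 CPM, and PCB 52 rat 23 was the lowest. A motif match is a description of these letters and was not tested as a binding site.

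Other lower genes were of other kinds. Igf2, an imprinted fetal growth factor, ran from 10.6 through 12.2 to 14.9 CPM in PCB 52 rats, against 17.3, 20.2 and 25.2 CPM in sham rats. The groups did not overlap. Igf2 had a log2 fold change of -0.72 (SE 0.13), with an adjusted p of 0.397 by edgeR and 0.00358 by DESeq2. With the muscle level of each library as a covariate the value was -0.65. Sham rat 7, which had little muscle RNA, had 17.9 CPM of Igf2, and the part of muscle in the difference was not tested further. H19, the imprinted non-coding RNA next to Igf2 that is made from the other parental copy, varied more between libraries. It ran from 109 through 341 to 736 CPM in PCB 52 rats, against 119, 877 and 1825 CPM in sham rats, and the lowest library of each group was again rat 23 or rat 7. Its log2 fold change was -1.27 (SE 0.557) and -0.46 with the muscle covariate. Over the 18 tested imprinted genes 9 were lower, with a median of 0.008 (-0.23 without PCB 52 rat 23). In the insulin-like growth factor list 8 of 14 tested members were lower, with a median of -0.09. Igfbp2, a binding protein that holds these factors in the extracellular fluid, ran from 0.847 through 3.24 to 26.4 CPM in PCB 52 rats and from 8.48 through 14.2 to 29.0 CPM in sham rats. PCB 52 rat 19 was far above the other PCB 52 libraries, and the log2 fold change of -1.15 (SE 0.683) had an edgeR adjusted p of 0.552.

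Ngfr, the p75 neurotrophin receptor of sympathetic axons, Schwann cells and some stromal cells, ran from 2.96 through 3.95 to 5.72 CPM in PCB 52 rats, against 6.32, 7.27 and 8.25 CPM in sham rats. The groups did not overlap, at a low level. Ngfr had a log2 fold change of -0.83 (SE 0.184), the largest among the 12 lower genes of smallest p, with an adjusted p of 0.434 by edgeR and 0.0495 by DESeq2. Most of the Schwann and nerve list lay the other way: 12 of 15 tested members were higher, with a median of 0.11 (0.029 without PCB 52 rat 13 and 0.062 without rat 23), and Ngfr was the only one with an unadjusted edgeR p under 0.05. Ctdnep1, a nuclear envelope phosphatase that acts on lipin, an enzyme of triglyceride synthesis, ran from 71.4 through 79.5 to 90.2 CPM in PCB 52 rats, against 90.9, 101 and 125 CPM in sham rats. The highest PCB 52 library and the lowest sham library were almost level. The difference was -0.40 on the log2 scale (SE 0.0885), with an adjusted p of 0.434 by edgeR and 0.0319 by DESeq2. The other genes among the 12 lower ones of smallest p were Nxn (nucleoredoxin, a regulator of Wnt signals), Dnajc27, Spa17, Rftn1 (a lipid raft protein) and Rap2a (a small GTPase). Their log2 fold changes lay between -0.34 and -0.80. Of the 12 lower genes, 8 had groups that did not overlap, against 0.187% of all tested genes with every PCB 52 library below every sham library. Dnajc27, Id1, Rap2a and Pdgfb overlapped. The 12 were picked by p in these same libraries, which favours groups that do not overlap, so nothing is read from the count.

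**Figure D2:**
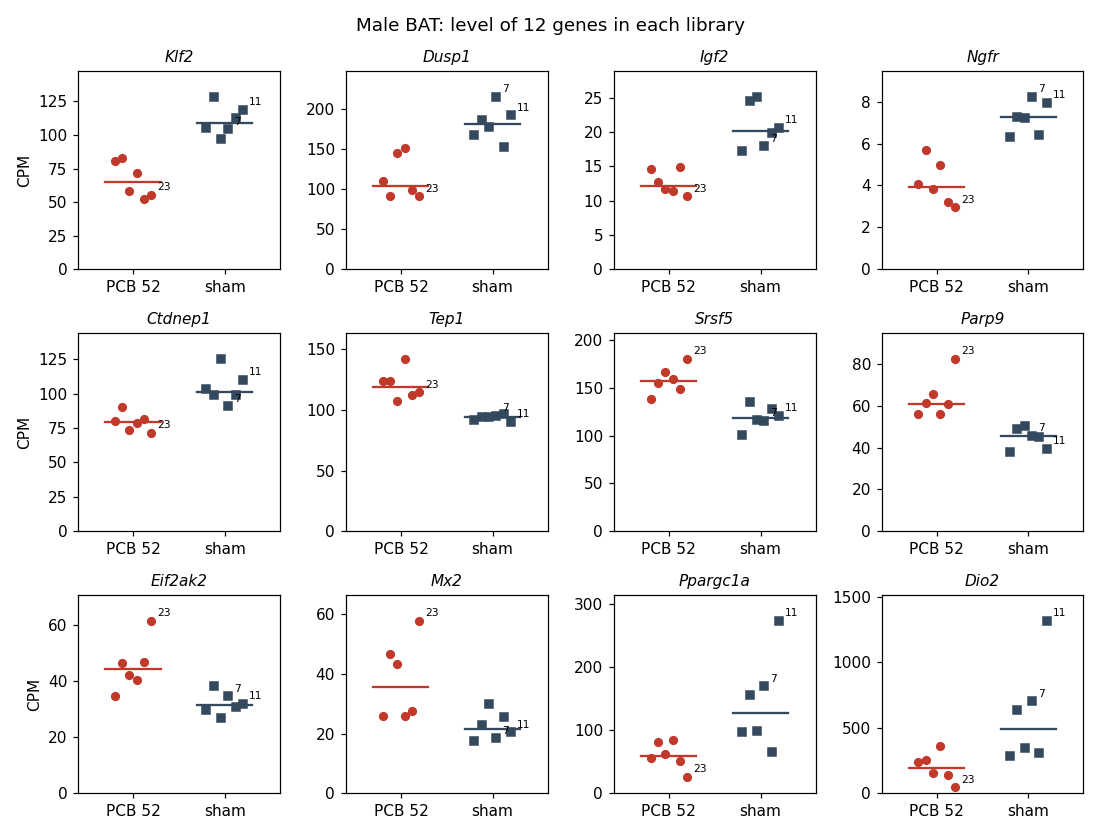
CPM (y axis, from 0) of 12 genes in each male BAT library, PCB 52 at the left (circles) and sham at the right (squares), with group medians as lines and rats 23, 7 and 11 numbered. The first 8 panels are the DESeq2 calls, in which the groups do not overlap; in Eif2ak2, Mx2, Ppargc1a and Dio2 they overlap, and rat 23 or rat 11 sits at an end.

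Genes of the interferon response, which cells switch on against viruses, were higher in PCB 52 BAT. Of 41 tested members 38 were higher, with a median log2 fold change of 0.29, against 54.9% higher and a median of 0.023 over all genes. An unadjusted edgeR p under 0.05 was found for 10, all of them higher, against 5.22% of all genes called higher. The difference rested in part on 1 library: without PCB 52 rat 23, 30 of 41 were higher with a median of 0.15 and 8 unadjusted calls; with the muscle level as covariate the median was 0.20. The summed level ran from 1602 through 1820 to 2172 CPM in PCB 52 rats, against 1575, 1640 and 1732 CPM in sham rats. Rats 23, 15 and 17 were above every sham library, rat 19 was level with the highest sham library, and rats 13 and 21 lay within the sham range.

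Parp9, an interferon-induced partner of the ubiquitin ligase Dtx3l, ran from 56.0 through 61.2 to 82.6 CPM in PCB 52 rats, against 38.2, 45.5 and 50.5 CPM in sham rats. The groups did not overlap, and rat 23 was far above the other PCB 52 libraries. Its log2 fold change was 0.51 (SE 0.109), with an adjusted p of 0.434 by edgeR and 0.0495 by DESeq2, and it was 0.41 without rat 23. Eif2ak2, the kinase PKR that halts translation on sensing double-stranded RNA, ran from 34.8 through 44.5 to 61.5 CPM in PCB 52 rats, against 26.8, 31.5 and 38.2 CPM in sham rats. Rat 13 was the only PCB 52 library inside the sham range (log2 fold change 0.50, SE 0.13, edgeR adjusted p 0.434). Mx2, an antiviral GTPase, ran from 26.0 through 35.5 to 57.7 CPM in PCB 52 rats, against 17.5, 21.7 and 30.0 CPM in sham rats. Rats 23, 15 and 17 stood above all sham libraries, the same 3 as for the sum (log2 fold change 0.75, SE 0.217, and 0.57 without rat 23). Cxcl10, a chemokine that draws T cells, was scarce, at 3.03 to 7.13 CPM in PCB 52 rats and 2.45 to 3.58 CPM in sham rats, and here rat 21 was the highest (log2 fold change 0.72, SE 0.238). The largest departure the other way was Isg20, an antiviral exonuclease, with a log2 fold change of -0.51 (SE 0.262).

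Many promoters of the list hold a sequence known from interferon-induced genes. The interferon-stimulated response element, searched as GAAANNGAAA on either strand, occurred in the 250 bases before the start of 20 of the 32 tested interferon genes with a RefSeq promoter (62.5%), and of 238 of the 8764 tested genes with one (2.72%). Among the 20 interferon genes with the motif 18 were higher, with a median log2 fold change of 0.35, and all 12 without it were higher, with a median of 0.23. All 238 genes that hold the motif, list members included, had a median of 0.075, and 150 of them lay above 0. The 3 list members of smallest p that hold the motif are shown, with the match in capitals (RefSeq, build GRCr8, 5′ to 3′ on the gene's strand). Eif2ak2 lies at chr6:21940904-21941153, Cxcl10 at chr14:15988816-15989065 and Igtp, a GTPase of cell-autonomous defence, at chr10:42874797-42875046, all on the plus strand.
Eif2ak2: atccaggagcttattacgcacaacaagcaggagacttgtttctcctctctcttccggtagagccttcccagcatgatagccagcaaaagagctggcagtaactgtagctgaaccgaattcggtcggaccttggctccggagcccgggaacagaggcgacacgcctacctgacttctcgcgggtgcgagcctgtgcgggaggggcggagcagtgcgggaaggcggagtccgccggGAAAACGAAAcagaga
Cxcl10: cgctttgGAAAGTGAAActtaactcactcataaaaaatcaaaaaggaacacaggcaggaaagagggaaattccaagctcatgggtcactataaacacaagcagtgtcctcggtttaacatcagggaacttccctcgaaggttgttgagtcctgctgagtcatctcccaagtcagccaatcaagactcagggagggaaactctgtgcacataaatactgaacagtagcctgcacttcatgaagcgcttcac
Igtp: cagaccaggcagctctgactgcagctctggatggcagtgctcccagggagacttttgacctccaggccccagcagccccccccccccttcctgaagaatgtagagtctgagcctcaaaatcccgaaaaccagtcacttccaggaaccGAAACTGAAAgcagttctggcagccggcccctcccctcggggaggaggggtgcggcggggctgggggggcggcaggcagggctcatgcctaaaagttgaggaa

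In Eif2ak2 the match ends 7 bases before the start, in Igtp 94 bases and in Cxcl10 234 bases. Igtp ran from 23.8 through 32.9 to 42.2 CPM in PCB 52 rats, against 19.8, 24.0 and 30.2 CPM in sham rats (log2 fold change 0.41, SE 0.141). No statement on binding follows from these matches.

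Of the immune cell lists, the macrophage list lay above 0 throughout and the mast cell list mostly below. All 33 tested macrophage members had a fold change above 0, with a median of 0.29, and 3 had an unadjusted edgeR p under 0.05: Ptprc (CD45, on all white blood cells), Mpeg1 (a pore-forming protein of macrophages) and Cd53 (a leukocyte tetraspanin). Over all tested genes 5.22% were called on the higher side, and nothing is read from a count this small. Ptprc ran from 24.5 through 35.8 to 50.7 CPM in PCB 52 rats, against 17.7, 26.4 and 32.2 CPM in sham rats (log2 fold change 0.54, SE 0.18). The defining marker Cd68 had the lowest fold change of the list, 0.004 on the log2 scale (SE 0.169). The other defining markers had higher medians in PCB 52 rats than in sham rats, with overlapping groups. These medians were 29.9 and 19.9 CPM for Adgre1, 91.7 and 74.2 CPM for Cd163, 150 and 140 CPM for Csf1r, and 129 and 120 CPM for C1qa. The summed macrophage level ran from 1251 through 1919 to 3032 CPM in PCB 52 rats, against 1246, 1572 and 2018 CPM in sham rats. Rats 23, 21 and 13 lay above every sham library, and rats 15 and 17, which were high for interferon genes, were among the lower libraries. Without rat 23, 25 of 33 members were higher with a median of 0.14 and 1 unadjusted call, and with the muscle covariate the median was 0.19. Without both rats 7 and 23, 30 of 32 tested members were higher, with a median of 0.284 and 3 unadjusted calls.

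Inflammatory genes had a median log2 fold change of 0.44, with 18 of the 21 tested above 0. An unadjusted edgeR p under 0.05 was found for 4, all higher, against 5.22% of all genes called higher. Without rat 23 the median was 0.24, and with the muscle covariate 0.28. The summed level hardly differed in its median. It ran from 591 through 666.5 to 999 CPM in PCB 52 rats, against 579, 665.2 and 786 CPM in sham rats. Il1b, the cytokine interleukin 1 beta, ran from 2.04 to 3.03 CPM in PCB 52 rats and from 1.05 to 2.21 CPM in sham rats (log2 fold change 0.68, SE 0.23). Nlrp3, the sensor of the inflammasome that releases it, ran from 5.72 through 12.5 to 16.9 CPM in PCB 52 rats, against 2.11, 6.46 and 9.56 CPM in sham rats (log2 fold change 0.87, SE 0.352). Il1rn, its natural antagonist, ran from 1.13 to 8.72 CPM in PCB 52 rats and from 0.744 to 2.17 CPM in sham rats (log2 fold change 1.39, SE 0.488), and Il18 was 0.71 higher on the log2 scale (SE 0.299). All 4 genes sat at low levels and their groups overlapped. Only 9 of 29 measured T, NK and B lymphocyte genes were abundant enough to test; 8 of them were higher, with a median of 0.37 and 2 unadjusted calls, Cd22 and Il7r. The antigen presentation list had 19 of 25 tested members higher with a median of 0.14 (0.065 without rat 23). Its 2 unadjusted calls were both higher, against 5.22% of all genes called higher. They were Tap2 (log2 fold change 0.20, SE 0.0724), which moves peptides into the endoplasmic reticulum, and Erap1 (0.19, SE 0.0864), which trims them. Of 9 tested mast cell genes 8 were lower, with a median of -0.12 (0.024 without PCB 52 rat 15) and no unadjusted call.

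**Figure D3:**
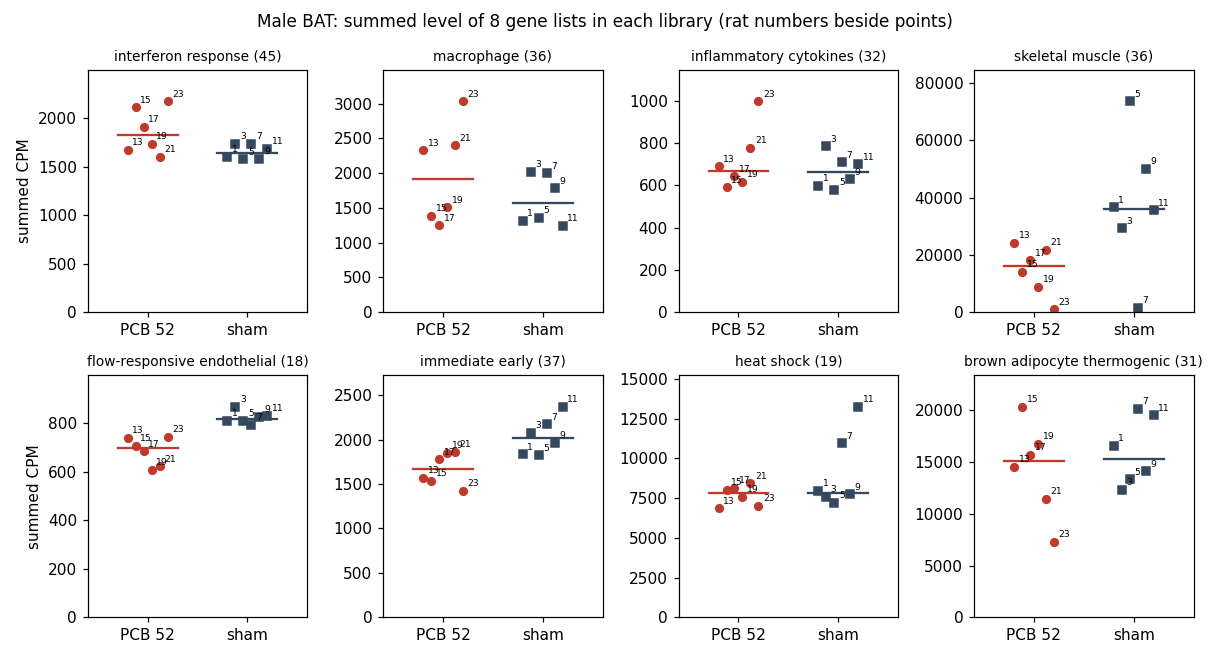
Summed CPM (y axis, from 0) of the measured members of 8 gene lists in each male BAT library, PCB 52 at the left and sham at the right, with rat numbers beside the points and medians as lines. Only the flow-responsive endothelial sums do not overlap; rat 23 is at an end of 7 of the 8 lists in its group, and rats 23 and 7 have almost no muscle RNA.

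Genes of heat production were mixed. Of 28 tested thermogenic members 17 were lower, with a median of -0.04 that ranged from -0.18 to 0.054 as each library was left out. The 2 with an unadjusted edgeR p under 0.05, both lower, were Dio2 and Ppargc1a, against 4.64% of all genes called lower. Dio2, the deiodinase that makes active thyroid hormone within the cell, ran from 45.7 through 194 to 360 CPM in PCB 52 rats, against 285, 494 and 1315 CPM in sham rats. Only PCB 52 rat 19 lay inside the sham range. The log2 fold change was -1.59 (SE 0.489, edgeR adjusted p 0.441), and it was -1.39 without PCB 52 rat 23 and -1.21 without sham rat 11. Ppargc1a, the coactivator that drives mitochondrial biogenesis, ran from 26.1 through 59.2 to 83.7 CPM in PCB 52 rats, against 65.4, 127 and 273 CPM in sham rats. The groups overlapped only because sham rat 9 was low. On the log2 scale the difference was -1.25 (SE 0.35, edgeR adjusted p 0.434), and it was -1.10 without PCB 52 rat 23 and -0.97 without sham rat 11. Ucp1 itself had a log2 fold change of -0.27 (SE 0.25), with an edgeR adjusted p of 0.698.

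Subunits of oxidative phosphorylation were nearly all lower by a little, with 38 of 39 below 0 and a median of -0.11, and 1 unadjusted call (Atp5mc1). Without rat 23 the median was -0.01 with 30 of 39 still lower, and without both rats 7 and 23 it was 0.028 with 26 of 39 higher. Heat shock genes had 18 of 19 tested members lower, with a median of -0.24 and -0.17 without sham rat 11. The 4 unadjusted calls were all lower, against 4.64% of all genes called lower. The summed level had a median of 7825 CPM in PCB 52 rats and 7854 CPM in sham rats, with sham rat 11 the highest at 13268 CPM. Hspb1, a small chaperone that muscle also makes in quantity, ran from 95.3 through 156 to 183 CPM in PCB 52 rats, against 168, 214 and 284 CPM in sham rats (log2 fold change -0.58, SE 0.161, and -0.47 with the muscle covariate). Bag3, its partner in clearing damaged proteins, ran from 26.1 through 32.9 to 52.95 CPM in PCB 52 rats, against 43.6, 52.8 and 98.4 CPM in sham rats. Sham rat 11 was far above the other sham libraries and also had the highest Dio2 and Ppargc1a, and without it the log2 fold change of Bag3 was -0.55 instead of -0.74. The inducible chaperone Hspa1a was at 34.6 CPM in sham rat 7 and 55.3 CPM in sham rat 11, but between 5.60 and 13.4 CPM in the 10 other libraries of both groups.

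Hsph1, a chaperone of the HSP110 family, is shown because it was the heat shock member of smallest p with a heat shock element. The motif, searched as GAANNTTCNNGAA on either strand, occurred before 4 of the 16 tested heat shock genes with a promoter (25%) and 35 of all 8764 (0.399%). The 4 with the motif had a median log2 fold change of -0.248, against -0.277 for the 12 without it. All 35 genes that hold the motif, list members included, had a median of 0.006, and 21 of them lay above 0. Hsph1 ran from 103 through 136 to 160 CPM in PCB 52 rats, against 117, 152 and 392.2 CPM in sham rats, with the groups overlapping and sham rat 11 apart (log2 fold change -0.51, SE 0.262). The window is chr12:10427118-10427367 on the plus strand (RefSeq, build GRCr8), with the match in capitals.
Hsph1: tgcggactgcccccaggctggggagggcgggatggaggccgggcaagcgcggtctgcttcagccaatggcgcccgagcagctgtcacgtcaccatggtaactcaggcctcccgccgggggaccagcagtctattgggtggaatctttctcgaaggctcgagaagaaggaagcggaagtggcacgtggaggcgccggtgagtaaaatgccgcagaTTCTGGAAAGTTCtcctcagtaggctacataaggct

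Lipid genes differed little as lists. The mature adipocyte list had 16 of 29 tested members higher (median 0.023), lipolysis and adrenergic genes 14 of 26 (median 0.012), fatty acid synthesis 16 of 24 (median 0.09), cholesterol genes 15 of 29 (median 0.002) and fatty acid oxidation 12 of 32 (median -0.04). A few members stood out. Plin1, the perilipin that coats the fat droplet, ran from 1661 through 1956 to 2186 CPM in PCB 52 rats, against 1262, 1556 and 1802 CPM in sham rats (log2 fold change 0.36, SE 0.123). Only PCB 52 rat 21 lay inside the sham range. Crot, which handles medium-chain acyl groups from peroxisomes, ran from 69.3 through 71.6 to 84.7 CPM in PCB 52 rats, against 40.8, 58.0 and 68.7 CPM in sham rats, without overlap (log2 fold change 0.40, SE 0.113). Pex11a, which divides peroxisomes, was 120 to 179 CPM in PCB 52 rats and 104 to 138 CPM in sham rats (log2 fold change 0.36, SE 0.102). Mlxipl and Srebf1, the transcription factors of lipid synthesis, were higher by 0.28 (SE 0.114) and 0.50 (SE 0.21) on the log2 scale. Leptin (Lep) varied widely, from 14.7 through 70.5 to 317 CPM in PCB 52 rats and from 17.96 through 45.1 to 106 CPM in sham rats. PCB 52 rats 21 and 23 were the highest of all, and the log2 fold change of 1.03 (SE 0.704) became 0.44 without rat 23. In the insulin and glucose list 19 of 31 tested members were lower (median -0.13). Its smallest p was that of Gapdh, a glycolytic enzyme also abundant in muscle, at 1016 through 2378 to 2909 CPM in PCB 52 rats and 2300 through 3547 to 4958 CPM in sham rats.

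The usual targets of PCB exposure were scarce in this tissue. Only 20 of the 39 measured xenobiotic response genes were abundant enough to test, and 15 were higher, with a median of 0.09; without rat 23 only 6 were. Cyp2b1, the hepatic marker of CAR activation, was at 0 in PCB 52 rat 13, at 0.204 to 5.28 CPM in the next 4 and at 14.7 CPM in rat 23, against 0.408 to 3.98 CPM in sham rats. Its log2 fold change of 1.09 (SE 0.912) was -0.02 without rat 23. Ahr, the aryl hydrocarbon receptor, ran from 11.8 through 15.02 to 18.8 CPM in PCB 52 rats, against 7.55, 11.5 and 13.2 CPM in sham rats (log2 fold change 0.45, SE 0.164). Its partner Arnt was higher by 0.26 (SE 0.0957). By unadjusted p these 2 were called higher and 1 gene lower, against 5.22% and 4.64% of all genes. The third unadjusted call was Aldh1a1, a retinaldehyde dehydrogenase, at 2.60 through 5.23 to 8.94 CPM in PCB 52 rats and 1.61 through 8.91 to 27.9 CPM in sham rats (log2 fold change -1.18, SE 0.52). All 3 had overlapping groups, while Cyp1b1, a target of the pair, had a log2 fold change of 0.006 (SE 0.352). NRF2 and glutathione genes had 22 of 39 tested members lower (median -0.03), with Srxn1 (sulfiredoxin) the 1 unadjusted call (log2 fold change -0.63, SE 0.275).

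Hormone and stress lists were mixed. Of 28 tested glucocorticoid response genes 16 were higher (median 0.041). The 2 unadjusted calls, Dusp1 and Klf15, were lower, against 4.64% of all genes called lower. Circadian clock genes had 11 of 16 lower (median -0.16), led by Nfil3, a repressor under clock control (log2 fold change -0.78, SE 0.279), whose highest library was again sham rat 11. In the list of unfolded protein and integrated stress genes 23 of 34 were higher (median 0.062), and by unadjusted p 2 were called on each side. Over all genes 5.22% were called higher and 4.64% lower, so nothing is read from these counts. Without rat 23, 17 of 34 were higher, with a median of -0.003. The higher calls were Atf6, a sensor of unfolded protein (log2 fold change 0.25, SE 0.0886), and the stress hormone Gdf15 (log2 fold change 0.755, SE 0.334), and the lower ones Atf4 and Chac1. Atf4, the transcription factor of the integrated stress response, ran from 194 through 242 to 262 CPM in PCB 52 rats, against 240, 308 and 404 CPM in sham rats (log2 fold change -0.41, SE 0.122). Chac1, which Atf4 induces, had a log2 fold change of -1.80 (SE 0.617), and -0.82 with the muscle covariate. Cell cycle genes had 11 of 17 higher (median 0.14, and 0.025 without rat 23), with Tyms, thymidylate synthase, the 1 unadjusted call (log2 fold change 0.29, SE 0.102). The thyroid hormone axis (9 of 14 lower, median -0.04), the p53 list (9 of 18 lower, median -0.01), extracellular matrix (22 of 34 higher, median 0.010), adipose progenitors (19 of 24 higher, median 0.09) and red blood cell genes (5 of 7 lower, median -0.10) held few or no unadjusted calls. Single libraries decided the last 3: without PCB 52 rat 23 only 8 of 34 matrix genes (median -0.096) and 13 of 24 progenitor genes (median 0.019) were higher, and without sham rat 3 the red blood cell median was 0.24.

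**Figure D4:**
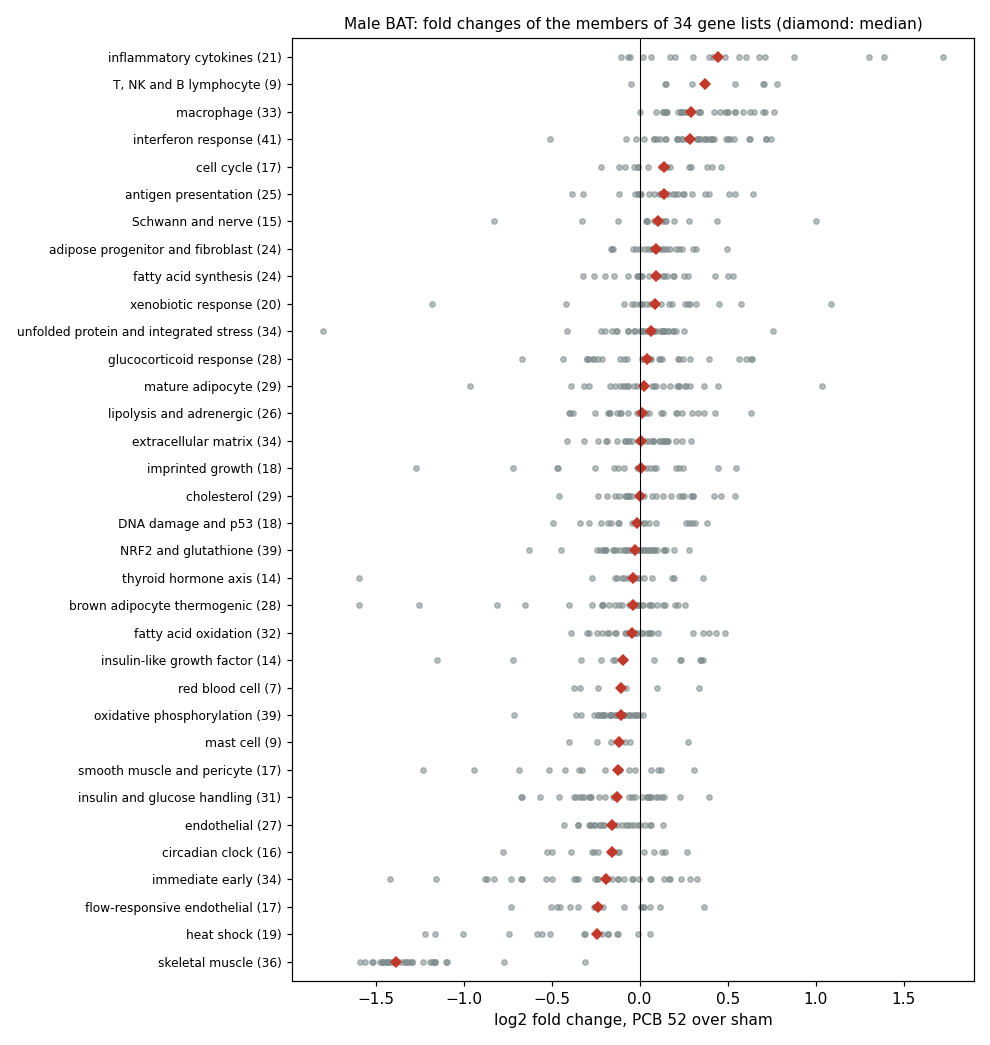
Log2 fold change, PCB 52 over sham (x axis), of the tested members (grey points) of 34 gene lists (y axis, number tested in brackets), ordered by their median (red diamond). Inflammatory, lymphocyte, macrophage and interferon genes are at the high end, and skeletal muscle genes, with a median of -1.39, far below all other lists.

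The 12 higher genes of smallest p were of several kinds. Tep1, which binds telomerase and vault RNA, ran from 107 through 119 to 142 CPM in PCB 52 rats, against 90.4, 94.3 and 96.7 CPM in sham rats. The sham libraries lay close together and all PCB 52 libraries above them. Its log2 fold change was 0.36 (SE 0.0762), with an adjusted p of 0.434 by edgeR and 0.0319 by DESeq2. Srsf5, a splicing factor of the SR family, ran from 138 through 157 to 181 CPM in PCB 52 rats, against 101, 119 and 135 CPM in sham rats. The groups did not overlap, and the log2 fold change was 0.40 (SE 0.0886), with an adjusted p of 0.434 by edgeR and 0.0319 by DESeq2. Sin3a, the scaffold of a histone deacetylase complex, ran from 48.8 to 58.0 CPM in PCB 52 rats and from 36.1 to 45.1 CPM in sham rats (log2 fold change 0.34, SE 0.0795). Taf1d, part of the factor that starts ribosomal RNA synthesis, ran from 11.1 to 18.6 CPM in PCB 52 rats and from 6.96 to 10.1 CPM in sham rats (log2 fold change 0.72, SE 0.158). Rgs2, which shortens signalling through Gq-coupled receptors, had the largest difference of the 12, at 30.7 through 55.9 to 68.2 CPM in PCB 52 rats and 20.4 through 31.6 to 37.5 CPM in sham rats (log2 fold change 0.81, SE 0.192). The rest were Abhd13, Zfp518a, Rai1 (a chromatin regulator), Zmym1, Fam76b and Slc33a1 (the acetyl-CoA carrier of the endoplasmic reticulum), with log2 fold changes between 0.32 and 0.59. In 10 of the 12 the groups did not overlap, against 0.412% of all tested genes with every PCB 52 library above every sham library. Zmym1 and Rgs2 overlapped. The 12 were picked by p in these same libraries, which favours groups that do not overlap, so nothing is read from the count.

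BAT of female rats from the same series, with its own 6 PCB 52 and 6 sham libraries, was set beside these values. A sex by treatment interaction called 0 of 11032 genes in edgeR (0%) and found 266 at an unadjusted p under 0.05 (2.41%), against 552 expected if none differed; the smallest adjusted p was 0.9998. The interaction had a median SE of 0.242, and a p that misses the threshold does not show that the sexes responded alike. Of the 24 genes named for male BAT 20 had the same direction in female BAT (83.3%), against 62.8% of the 10553 genes tested in both. Dusp1 had a log2 fold change of -0.67 (SE 0.143) in males and -0.78 (SE 0.227) in females, and Klf2 of -0.73 (SE 0.125) and -0.53 (SE 0.195). Igf2 and Ngfr, at -0.72 and -0.83 in males, were at -0.18 (SE 0.163) and -0.08 (SE 0.229) in females. Ppargc1a was at -1.25 (SE 0.35) in males and -1.18 (SE 0.544) in females.

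The lists lined up unevenly between the sexes, and no difference between them was tested. Heat shock genes had 18 of 19 members lower and a median of -0.24 in males, and a median of -0.25 with 1 of 19 higher in females. Immediate early genes had medians of -0.19 and -0.28, and flow-responsive endothelial genes of -0.24 and -0.17. The macrophage median was 0.29 in males and 0.002 in females, and the interferon median 0.29 and 0.12. Skeletal muscle genes went opposite ways, with a median of -1.39 in males and 0.34 in females. Among the 5 genes of smallest interaction p were Slc33a1 (0.32 in males, -0.22 in females), Tex10 (0.39 and -0.14), Abhd13 (0.35 and -0.08) and Zfp524 (-0.45 and 0.12).

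In the other fat depots of male rats, whose title numbers are the same, the leading genes were looked up as well. In subcutaneous fat Klf2 had a log2 fold change of 0.26 (SE 0.415), Dusp1 of -0.09 (SE 0.423), Igf2 of -0.37 (SE 0.458), Parp9 of -0.22 (SE 0.339) and Tep1 of -0.001 (SE 0.143). In visceral fat, with 5 PCB 52 and 6 sham libraries, the same genes had -0.30, -0.35, -1.14, 0.23 and 0.38. The SEs there were 0.245, 0.17, 0.403, 0.181 and 0.239, so both depots had wider SEs than BAT for these genes, and no difference between depots was tested. Of the 24 genes named for male BAT, 10 had the same direction in subcutaneous fat (41.7%, against 44.9% of all genes tested in both) and 17 in visceral fat (70.8%, against 59.8%). The interferon list had a median of -0.152 in subcutaneous fat (9 of 41 higher) and 0.325 in visceral fat (38 of 41 higher). In the same order the medians were -0.074 and 0.188 for macrophage genes and 0.110 and -0.292 for immediate early genes. They were -0.055 and -0.022 for flow-responsive endothelial genes, and 0.109 and -0.099 for heat shock genes.

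**Figure D5:**
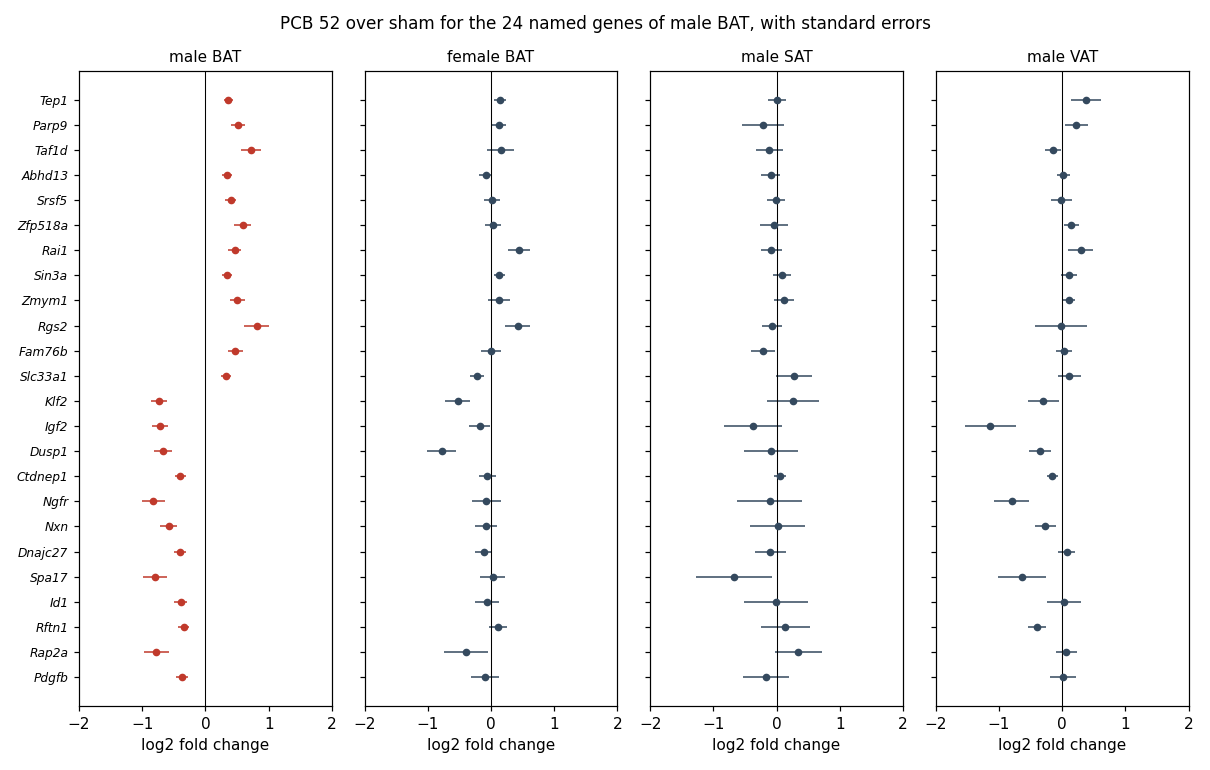
Log2 fold change, PCB 52 over sham, with standard errors (x axis) of the 24 genes of smallest p in male BAT (y axis; 12 higher above, 12 lower below) in male BAT and, beside it, in female BAT, male subcutaneous fat (SAT) and male visceral fat (VAT). The male BAT values chose the genes and so lie apart by construction; in female BAT 20 of the 24 points lie on the same side of 0.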

How the data were processed

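RNA of 12 male BAT samples was analysed, with female BAT and male subcutaneous and visceral fat set beside it. The values as deposited by the authors are raw counts, with each sex and depot in a table of its own; 4 tables were used and no column was left without a sample. The submitters' processing notes name FastQC, HISAT2 and the rat build rn6; the sources used here give no versions, counting program, annotation or strand setting, so overlapping, antisense and near-identical genes (RT1 and globin genes among them) have uncertain counts. The labels' protocols leave it unsaid whether mRNA was enriched with poly(A) capture or by removing rRNA. Gene numbers were matched to RefSeq symbols (15230 matched, 89 did not), and promoters come from RefSeq GRCr8, 250 bases before the start.

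Counts were tested with edgeR 4.0.16 (TMM, default expression filter, robust quasi-likelihood F test, Benjamini-Hochberg adjustment, threshold 0.05) in R 4.3.3, on the 12 male BAT libraries alone; the interaction used all 24 BAT libraries. The script was tested on simulated data. Alternatives were DESeq2 1.42.0, limma 3.58.1 voom, other scalings, no filter, the muscle level as covariate, each library left out, and, chosen after seeing the data, rats 7 and 23 left out together. Named genes are the 12 of smallest p in each direction, DESeq2 calls, up to 4 members per list by p, defining markers and 5 interaction genes, 1 of which is not reported here; members at the ends of a list, and Fos, Egr1, Cyp1b1, Cyp2b1, Lep, H19, Jund, Igtp, Hsph1, Hspa1a, Srsf and Zfp genes, were chosen after their values were seen. The 34 lists, some of which share members, and the members were chosen with earlier results of these data known. A value per library in groups of 6 is given as lowest, median and highest.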

Additional observations from a re-analysis of the deposited data

Results flagged for a closer look

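Single libraries that lay far from the other 5 of their group were sought over 99 genes and 10 lists, in 218 groups; 15 stood apart by Dixon's criterion at the 95% level, and chance alone marks about 1 group in 20. Skeletal muscle genes averaged 3.18 log2 CPM in PCB 52 rat 23, against 6.71 to 8.12 in the other PCB 52 libraries, and 3.44 in sham rat 7, against 8.14 to 9.5 in the other sham libraries. In the same rat 23 the muscle gene Mybpc2 was at 120 CPM (119.6), against 504 to 676 CPM, the interferon gene Parp9 at 82.6 CPM, against 56.0 to 65.6 CPM, and Cyp2b1 at 14.7 CPM, against 0 to 5.28 CPM. Heat shock genes averaged 7.87 log2 CPM in sham rat 11, against 7.04 to 7.29 in the other sham libraries. The same library had Bag3 at 98.4 CPM (others 43.6 to 61.4), Hsph1 at 392.2 CPM and the lipid transporter Mfsd2a at 50.2 CPM (others 18.3 to 24.3). Smad7 was at 36.9 CPM and Isg20 at 7.35 CPM in PCB 52 rat 15. In PCB 52 rat 17 Rftn1 was at 24.5 CPM and Crot at 84.7 CPM. Igfbp2 was at 26.4 CPM in PCB 52 rat 19, and Nsdhl, an enzyme of sterol synthesis, at 20.6 CPM in sham rat 9. The reasons were not tested.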

How the results depend on the processing

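The count of genes past the adjusted threshold was 0 in edgeR and 8 in DESeq2, and between 0 and 1 when each library was left out in turn (1 without PCB 52 rat 19). Genes at an unadjusted p under 0.05 ranged from 744 to 1336 over libraries left out in turn, against 1054 with all 12; with the muscle covariate 405 were higher and 336 lower. The interaction count was 0 throughout. The median of oxidative phosphorylation genes turned to 0.028 without rats 7 and 23. The skeletal muscle median turned to 0.124, and the muscle gene Ckm to 0.097, with the muscle covariate, which is built from such genes. Cyp2b1 ranged from -0.024 (without PCB 52 rat 23) to 1.40 over libraries left out, and turned to -0.36 with limma voom and -0.124 without rats 7 and 23; the cause was not tested. No other gene recomputed changed direction. Of the 34 list medians 16 changed sign when some 1 library was left out, each within 0.115 of 0 with all 12: that of the thermogenic genes ranged from -0.179 to 0.054 over libraries left out, and was 0.016 with library totals alone and 0.091 without rats 7 and 23. No paired analysis was possible because PCB 52 and sham rats have different title numbers. With 6 libraries a group, a median SE of 0.146 limits what can be told apart, and genes under a few CPM rest on few counts. What sham rats breathed, how BAT was dissected and the order of processing are not in the labels used here.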

Other observations

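Families grouped by gene symbol after the values were seen also leaned one way. Of 27 tested splicing genes of the SR and hnRNP families, which choose exons during RNA processing, 24 were higher in PCB 52 BAT. Their median log2 fold change was 0.15, against 54.9% higher and a median of 0.023 over all genes, and it was 0.14 without rat 23. An unadjusted edgeR p under 0.05 was found for 8, all higher, against 5.22% of all genes called higher. Hnrnpa1, a general splicing repressor, ran from 170 to 196 CPM in PCB 52 rats and from 133 to 166 CPM in sham rats, without overlap (log2 fold change 0.28, SE 0.0784). Of 155 tested Zfp zinc finger genes, most of them transcription factors, 114 were higher, with a median of 0.11, and 0.059 without rat 23. By unadjusted p 12 were called higher and 6 lower, against 5.22% and 4.64% of all genes. Zfp217 ran from 23.1 to 32.1 CPM in PCB 52 rats and from 18.8 to 22.9 CPM in sham rats (log2 fold change 0.38, SE 0.0978), also without overlap. Among the lower calls was Zfp524 (log2 fold change -0.45, SE 0.121).

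Ribosomal protein genes leaned the other way. Of 79 tested genes of the cytosolic ribosome 67 were lower, with a median of -0.09. Of 70 of the mitochondrial ribosome 67 were lower, with a median of -0.14. Each family had 2 unadjusted calls, all lower, against 4.64% of all genes called lower, so nothing is read from these counts. Without rats 7 and 23 these medians were -0.068 and -0.032, and with library totals alone -0.024 and -0.082. In female BAT the medians were 0.04 for the splicing genes, 0.03 for the Zfp genes, -0.007 for the cytosolic and -0.07 for the mitochondrial ribosome. Rbm3, an RNA-binding protein induced by cold, ran from 53.7 through 63.8 to 87.7 CPM in PCB 52 rats, against 42.3, 47.7 and 56.0 CPM in sham rats (log2 fold change 0.45, SE 0.117), and rat 23 was the highest.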
